A study of Mus musculus with 6 samples.

Results

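The collagen genes of the mouse were examined in the accessible chromatin of untreated embryonic stem cells. They were taken as the protein-coding RefSeq genes of GRCm38 whose symbol is Col, a number, a and a number, which gave 44 of 21774 protein-coding genes on 15 chromosomes. The series maps open DNA by ATAC-seq, an assay based on insertion of adapters by the Tn5 transposase, in 6 samples in 3 groups of 2, namely untreated V6.5 cells and ZBTB21 degron mESCs at 0 h and 6 h. V6.5 is a mouse embryonic stem cell (mESC) line, which the labels describe as grown on irradiated fibroblast feeders with serum and LIF, while the study's methods list serum, LIF and the inhibitors CHIR99021 and PD0325901 and name no feeders. The values below come from 1 list of 41014 peaks for untreated V6.5 cells, with no allele or agent named for that group, although the treatment text attached to each label speaks of doxycycline given to degron cells. The degron libraries were not used here.

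Collagens are mostly secreted proteins whose chains wind into a triple helix, and a few are transmembrane proteins. Fibrillar collagens (types I, II, III, V, XI, XXIV and XXVII) form or regulate the fibrils of bone, skin, tendon and cartilage, and are made mainly by mesenchymal cells. Type IV collagen forms the sheet-like network of basement membranes, and type XVIII is a basement membrane proteoglycan whose end fragment is endostatin. The type IV genes lie as head-to-head pairs, and basement membranes are among the first matrices that the mouse embryo builds.

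The list pools both untreated replicates, so each peak has 1 score. Neither the error between replicates nor the depth behind a value could therefore be given, and no test was run. Each count of collagen genes stands beside the same count over the 21774 genes. The score is a whole number from 540 to 953 with a median of 696, and it was used here only to order peaks within the list. From its values alone it was read as a scaled IDR score, a measure of how repeatable a peak is between replicates. On that reading a low or high score is not a degree of openness. Of 13 genes that mark mESCs, 6 had a peak within 1 kb of a transcription start site (TSS), among them Tbx3 at 909, Zfp42 at 892, Pou5f1 at 861 and Nanog at 805. Sox2, Klf4 and Klf2 had none, with the nearest peak 31.1 kb from the Klf4 start and 2.31 kb from that of Klf2, so a gene without a listed peak is not shown to have a closed promoter. Of 14 fibroblast markers, 3 had such a peak (Thy1 at 829, Pdgfra at 687 and Pdgfrb at 602), and 5 of 14 (35.7%) had a peak in the gene span, with 6 in Fbln1 and 4 in Fn1. The other 9, among them Prrx1, Twist1, Dcn and Postn, had no peak at a TSS or in the gene. The share of any feeder cells in the libraries was not tested. Of 10 markers of primitive and parietal endoderm, an early embryonic source of basement membrane, 0 had a TSS peak. In the gene span, 3 of these 10 (30.0%) had a peak, with 4 in Cubn, 3 in Lrp2 and 1 in Dab2. Over all protein-coding genes, 29.9% had a peak at a TSS and 49.6% in the span.

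Sequences show where these genes start and what the open and unlisted starts look like. Each runs 5′ to 3′ on the strand of its gene, from 250 bases before to 50 bases after a TSS on GRCm38.p6 (RefSeq), and capitals mark a match, on either strand, to any of 11 short motifs. The motifs were the GC box GGGCGG, the CCAAT box CCAAT, the TATA box TATAAA, the octamer ATGCAAAT, the SOX motif ACAAAG, the ESRRB motif AAGGTCA, the AP-1 motif TGANTCA, the TEAD motif GGAATG, the GATA motif AGATAA, the KLF motif GGGTGGG and the CTCF core AGGGGGC, and overlapping matches each counted. Basement membrane genes come first. The Col4a4 start (chr1:82586800-82587099, minus strand) lies wholly inside the peak that Col4a4 shares with Col4a3, and it has a KLF match.
Col4a4: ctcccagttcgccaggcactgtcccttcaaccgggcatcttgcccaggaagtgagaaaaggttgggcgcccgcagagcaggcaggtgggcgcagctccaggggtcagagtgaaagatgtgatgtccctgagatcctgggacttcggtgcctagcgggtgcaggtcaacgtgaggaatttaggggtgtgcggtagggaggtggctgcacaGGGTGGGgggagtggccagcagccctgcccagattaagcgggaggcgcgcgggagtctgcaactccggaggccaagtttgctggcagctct
The Col4a6 start (chrX:141474027-141474326, minus strand) and the Col4a5 start (chrX:141475169-141475468, plus strand) have separate peaks, which cover 97 and 176 of the 300 bases.
Col4a6: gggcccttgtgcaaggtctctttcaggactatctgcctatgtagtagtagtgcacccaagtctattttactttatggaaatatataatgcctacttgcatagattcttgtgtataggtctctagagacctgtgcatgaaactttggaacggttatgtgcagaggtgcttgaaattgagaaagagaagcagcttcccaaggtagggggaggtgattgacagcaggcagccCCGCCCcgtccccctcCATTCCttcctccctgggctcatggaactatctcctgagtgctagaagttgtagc
Col4a5: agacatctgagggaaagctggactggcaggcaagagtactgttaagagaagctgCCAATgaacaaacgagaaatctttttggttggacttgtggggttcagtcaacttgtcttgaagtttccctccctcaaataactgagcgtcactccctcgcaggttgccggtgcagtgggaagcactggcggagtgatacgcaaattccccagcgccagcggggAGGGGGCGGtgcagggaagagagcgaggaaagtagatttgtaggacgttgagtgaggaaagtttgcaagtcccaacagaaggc
Col18a1 has more than 1 promoter. The start inside the gene (chr10:77113656-77113955, minus strand) lies wholly in a peak and has no GC box, and the start at the 5′ end of the gene (chr10:77166481-77166780, minus strand) is in no peak and has 3 GC box matches.
Col18a1 inner: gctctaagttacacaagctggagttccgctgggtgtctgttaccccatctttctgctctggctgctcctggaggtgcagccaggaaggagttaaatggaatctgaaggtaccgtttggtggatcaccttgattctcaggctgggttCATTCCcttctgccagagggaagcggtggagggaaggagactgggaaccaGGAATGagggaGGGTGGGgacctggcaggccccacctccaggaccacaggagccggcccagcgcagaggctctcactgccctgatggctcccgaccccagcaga
Col18a1 outer: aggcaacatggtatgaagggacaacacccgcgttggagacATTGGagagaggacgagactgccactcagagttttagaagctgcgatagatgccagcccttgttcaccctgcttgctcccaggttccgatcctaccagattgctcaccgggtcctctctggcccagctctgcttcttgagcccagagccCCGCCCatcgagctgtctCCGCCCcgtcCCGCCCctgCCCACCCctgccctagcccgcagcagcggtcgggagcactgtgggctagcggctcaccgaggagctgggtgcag
The Col4a1 start (chr8:11312777-11313076, minus strand), shown after its values were seen because it lies in no peak, reads back to back with the start of Col4a2.
Col4a1: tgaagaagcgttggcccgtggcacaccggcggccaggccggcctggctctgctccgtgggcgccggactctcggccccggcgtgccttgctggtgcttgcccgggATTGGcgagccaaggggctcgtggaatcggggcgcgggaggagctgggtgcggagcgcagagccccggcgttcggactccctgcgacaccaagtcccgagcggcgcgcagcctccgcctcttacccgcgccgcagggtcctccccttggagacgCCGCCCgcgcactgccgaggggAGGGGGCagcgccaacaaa
Among fibrillar genes, the Col11a1 start (chr3:114030290-114030589, plus strand) lies in the highest scored collagen TSS peak and the Col5a3 start (chr9:20815018-20815317, minus strand) in the next one of that class.
Col11a1: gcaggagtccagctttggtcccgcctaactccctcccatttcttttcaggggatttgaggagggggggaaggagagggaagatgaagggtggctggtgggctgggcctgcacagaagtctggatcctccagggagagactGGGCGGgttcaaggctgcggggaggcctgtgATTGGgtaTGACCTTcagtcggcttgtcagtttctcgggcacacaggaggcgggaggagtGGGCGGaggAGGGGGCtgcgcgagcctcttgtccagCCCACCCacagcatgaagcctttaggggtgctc
Col5a3: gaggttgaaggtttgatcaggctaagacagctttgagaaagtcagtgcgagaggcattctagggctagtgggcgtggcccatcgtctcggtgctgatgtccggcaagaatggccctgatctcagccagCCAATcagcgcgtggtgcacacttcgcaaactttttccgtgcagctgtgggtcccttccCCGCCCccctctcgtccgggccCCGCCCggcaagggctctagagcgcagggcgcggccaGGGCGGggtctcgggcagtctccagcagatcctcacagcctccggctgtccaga
The starts of Col1a2 (chr6:4505368-4505667, plus strand) and Col3a1 (chr1:45311288-45311587, plus strand), genes of type I and type III collagen, are in no peak.
Col1a2: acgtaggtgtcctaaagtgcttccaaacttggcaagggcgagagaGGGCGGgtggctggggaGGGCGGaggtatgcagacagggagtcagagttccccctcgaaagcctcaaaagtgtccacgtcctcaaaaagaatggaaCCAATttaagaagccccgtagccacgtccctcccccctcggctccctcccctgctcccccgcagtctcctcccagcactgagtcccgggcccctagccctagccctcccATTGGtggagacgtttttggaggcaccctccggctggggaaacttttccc
Col3a1: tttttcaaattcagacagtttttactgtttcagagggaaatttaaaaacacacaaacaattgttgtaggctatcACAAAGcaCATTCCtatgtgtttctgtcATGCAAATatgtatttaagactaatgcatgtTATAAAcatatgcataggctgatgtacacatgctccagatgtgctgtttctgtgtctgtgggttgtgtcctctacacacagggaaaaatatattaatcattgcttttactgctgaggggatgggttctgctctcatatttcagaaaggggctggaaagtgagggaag

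The printed starts differ widely in base composition. The Col4a1 start has 74.0% G+C and an observed to expected CpG ratio of 0.902, the Col3a1 start has 37.7% and 0.0, and neither is in a peak. The starts in a peak range from 48.3% G+C (Col4a6) to 63.3% (Col4a4 and Col5a3). Over the 17492 protein-coding genes with a promoter of the same length and source, the medians were 56.3% and 0.576. Over all 32851 such promoters, the medians were 52.7% and 0.384. The GC box was found in 35.7% of these promoters, the CCAAT box in 37.4%, the TATA box in 13.6%, the octamer in 1.74%, the SOX motif in 18.7%, the ESRRB motif in 4.72%, the AP-1 motif in 7.81%, the TEAD motif in 14.7%, the GATA motif in 11.2%, the KLF motif in 17.5% and the CTCF core in 10.6%. A match describes letters and is not a binding site. Of the 44 collagen genes, 35 had a promoter in this table, under 80% of the members, so no comparison of promoter composition over the class was made.

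The first comparison asked how many collagen genes had open chromatin at a start. A peak within 1 kb of a TSS was listed for 12 of 44 genes (27.3%), beside 29.9% of all protein-coding genes. These were the basement membrane genes Col4a3, Col4a4, Col4a5, Col4a6 and Col18a1, the fibrillar genes Col5a2, Col5a3 and Col11a1, and Col7a1, Col20a1, Col23a1 and Col26a1. Type VII collagen builds the anchoring fibrils of skin, type XX is a FACIT collagen that associates with fibrils, and type XXIII is a transmembrane collagen. The share over the whole class was thus close to that of other genes, and the classes differed around it.

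Of 7 basement membrane genes, 5 (71.4%) had a peak at a TSS, and of 11 fibrillar genes, 3 (27.3%). The remaining 26 collagens had one in 4 cases (15.4%), with 1 of 9 FACIT genes, 1 of 4 transmembrane genes, and 0 of 6 beaded filament and related and 0 of 3 short chain genes. Because Col4a3 and Col4a4 share a single peak, the 5 basement membrane genes rest on 4 peaks. Col4a5 and Col4a6 are also neighbours, with starts 1343 bp apart. With the list limited to peaks above the median score, 0 of 7 basement membrane and 1 of 11 fibrillar genes counted, beside 19.4% of all genes. This turns the order, but only by the gene Col11a1, and both classes were below the share of all genes.

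**Figure D1:**
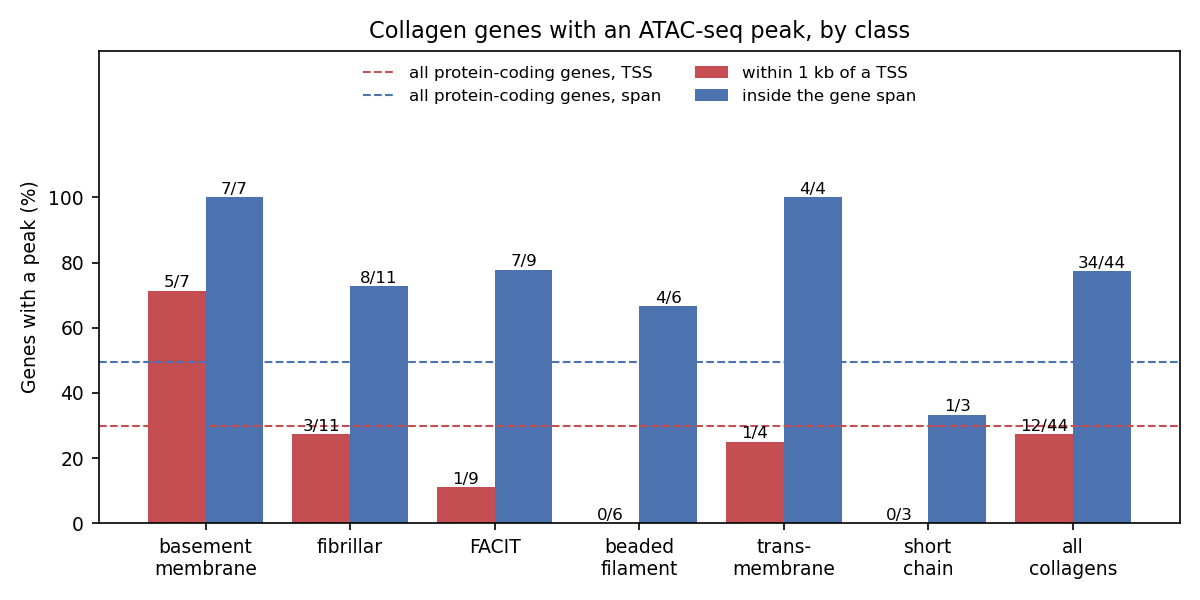
Bars give the share of genes (%) with a peak inside the gene span (blue) or within 1 kb of a TSS (red) for the larger collagen classes and all 44 collagens, with counts above the bars. Dashed lines give all protein-coding genes (29.9% and 49.6%), and the basement membrane bar for the TSS, 5 of 7, stands highest among the TSS bars.

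Of the type IV pairs, Col4a3 with Col4a4 had a shared TSS peak, Col4a5 with Col4a6 had separate ones and Col4a1 with Col4a2 had none. The Col4a3 and Col4a4 spans overlap by 114 bp, and the peak over both starts scored 655 and was 1147 bp wide. At the Col4a6 and Col4a5 starts on the X chromosome the peaks scored 610 and 556 and were 466 and 595 bp wide. Col4a1 and Col4a2, whose products form the type IV network found in nearly all basement membranes, overlap by 85 bp with curated starts 21 bp apart, and the nearest peak to either start lay 58.9 kb away. That nearest peak, at 724, was in intron 2 of Col4a1.

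Within the genes the order was the other way round. Col4a3, Col4a4, Col4a5 and Col4a6 had no peak inside the span beyond the one at the start. Col4a1 had 3 intronic peaks at 738, 670 and 724 (introns 40, 24 and 2), and Col4a2 had 3 at 561, 575 and 709 (introns 4, 20 and 29). Those 6 peaks lay between 59.2 kb and 118.0 kb from the 5′ end of their gene.

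Col18a1 had the most peaks of any collagen gene, 9 in 114 kb. Of these, 8 lay in intron 2 of its longest curated transcript and 1 in intron 22. The peak at a TSS, which scored 584, was 52.8 kb from the 5′ end of the gene, at the start of the shorter curated transcript. The others scored 817, 781, 728, 650, 619, 610, 562 and 541, so that 3 stood above the list median of 696. The nearest peak to the outer start was centred 9.05 kb into the gene.

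Among fibrillar genes, Col11a1, a minor fibril component of cartilage, had the highest scored TSS peak of all collagens, 900, and no other peak in its 190 kb. Col5a3 and Col5a2 encode chains of type V collagen, which is built into type I fibrils. The Col5a3 TSS peak scored 667, with intronic peaks at 601 and 560. The Col5a2 TSS peak scored 581 and was the only one in the gene, and its edge lay 22 bp from the start.

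The genes of the major fibrils lacked a TSS peak. Col1a1 had a peak in intron 19 at 644, 6.07 kb from the start, and one in the 3′ UTR at 777. Col1a2 and Col3a1 had no peak in the gene, and the nearest to their starts lay 39.0 kb and 48.1 kb away. Col2a1, the main collagen of cartilage, had intronic peaks at 872 and 765 (introns 16 and 18), the former overlapping the noncoding gene Gm46536, whose start was 1.57 kb from the peak centre. Col24a1, with 260 kb, had no peak, and its nearest lay 173 kb away.

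Single peaks away from the start were listed in Col5a1 (768, intron 64), Col11a2 (560, 3′ UTR) and Col27a1 (738, intron 36). The Col5a1 peak overlapped the noncoding gene Gm13372, 0.55 kb from its start. Of the 11 fibrillar genes, 3 thus had a peak at a TSS, 5 had peaks elsewhere in the gene, and Col1a2, Col3a1 and Col24a1 had none.

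**Figure D2:**
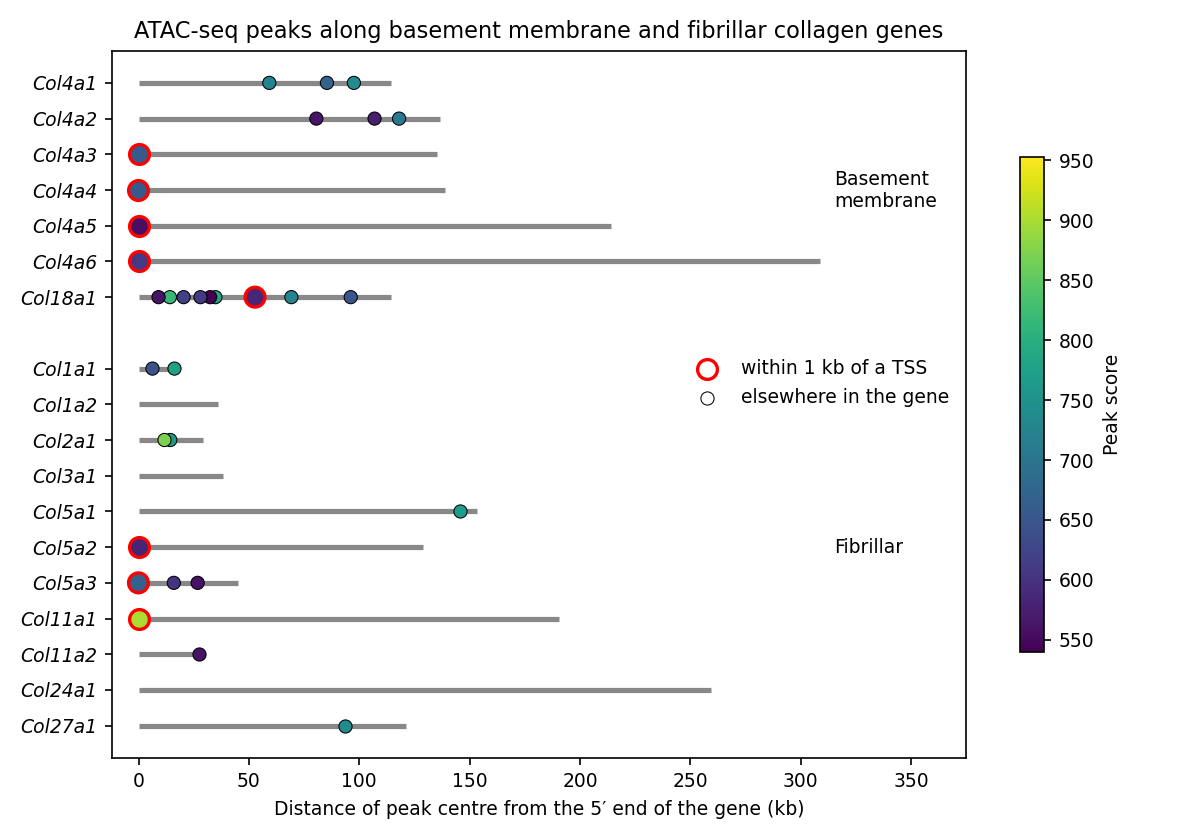
Each row is a basement membrane or fibrillar collagen gene, drawn as a grey line from its 5′ end over its length in kb, with a point at the centre of each ATAC-seq peak coloured by score. Large red-edged points are peaks within 1 kb of a TSS, which Col4a3 to Col4a6, Col5a2, Col5a3 and Col11a1 have at the 5′ end and Col18a1 has 52.8 kb into the gene.

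Collagen TSS peaks had low scores for peaks at a start. The 11 different peaks had a median score of 610, with 556 at Col4a5 as the lowest and 900 at Col11a1 as the highest, while the median over 6598 TSS peaks of protein-coding genes was 735. Above the list median of 696 stood 2 of 11 (18.2%), Col11a1 and Col26a1, beside 61.0% of all TSS peaks. The Col11a1 score exceeded 92.1% of all TSS peaks and the Col4a5 score 3.50%. Between these, the Col4a3 and Col4a4 peak exceeded 28.0%, Col4a6 16.8%, Col18a1 10.1%, Col5a3 31.0% and Col5a2 9.25%. The basement membrane TSS peaks ranged from 556 to 655 and the fibrillar ones from 581 to 900, so the ranges overlapped.

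Among the other TSS peaks, Col26a1 scored 750, Col23a1 651, Col20a1 593 and Col7a1 573. The Col26a1 peak lay at the start of a predicted transcript, 110 kb from the 5′ end of the gene, and did not count when starts were limited to curated transcripts. The Col23a1 peak was the widest of the collagen peaks, at 1383 bp. Median width was 706 bp for the 11 collagen TSS peaks and 737 bp for all TSS peaks, so scores stood apart more than widths.

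**Figure D3:**
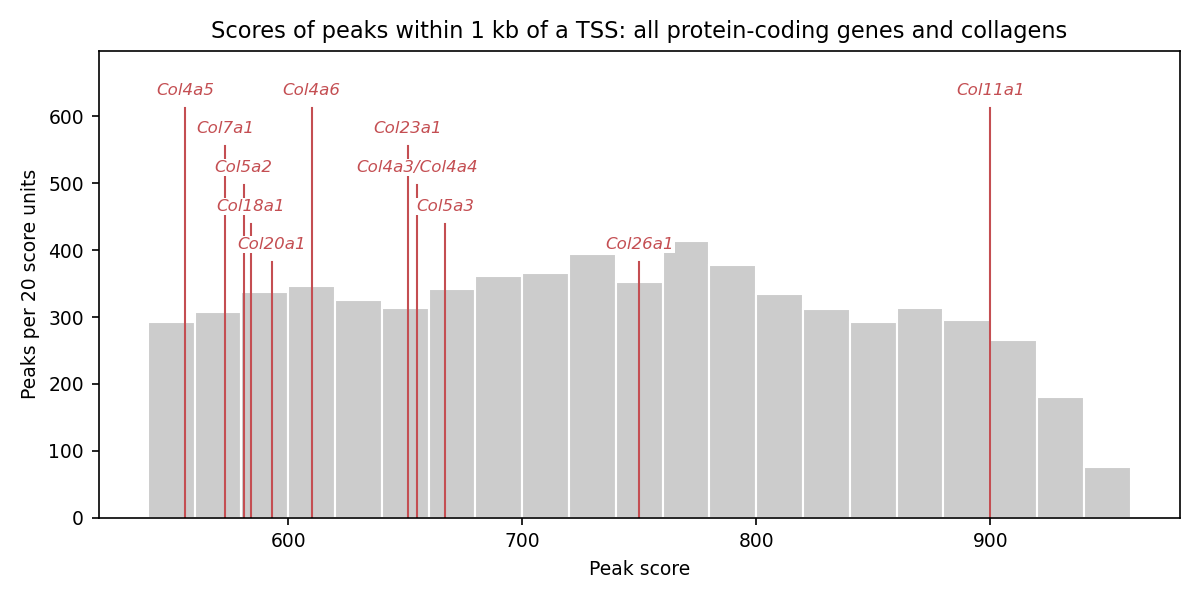
Grey bars give the number of peaks at starts (up to 1 kb away) of any protein-coding gene, per 20 units of peak score, and red lines mark the 11 collagen TSS peaks with their genes. All but Col26a1 (750) and Col11a1 (900) stand at 667 or below.

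The limit of 1 kb fell in a gap between members. Peaks that counted covered a TSS or, for Col5a2, lay 22 bp from it. The nearest peaks that did not count lay 2.07 kb from a start of Col6a1, outside the gene, 2.85 kb from one of Col8a2 and 2.95 kb from that of Col9a2. With 5 kb as the limit, 18 collagen genes counted, beside 41.0% of all genes.

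The second comparison asked how many genes held a peak anywhere between their first and last base. This was so for 34 of 44 collagen genes (77.3%), beside 49.6% of all protein-coding genes, and for 7 of 7 basement membrane and 8 of 11 fibrillar genes. Collagen genes are long, with a median span of 114 kb against 17.2 kb. Among genes of 100 to 200 kb, 16 of 18 collagens (88.9%) and 82.3% of all genes held a peak. Among genes of 200 kb and over, 6 of 8 collagens (75.0%) and 88.3% of all genes did. Below 50 kb the shares were 9 of 15 (60.0%) and 40.9%.

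The peaks per length gave a different order. The 44 spans held 71 different peaks, 72 when summed over genes, which is 1.32 per 100 kb (95% Poisson interval 1.03 to 1.67, counting error only). The same sum over all protein-coding genes gave 2.29 per 100 kb, and the whole list 1.5 per 100 kb of the assembled chromosomes. In each of the 4 length classes the collagens had fewer peaks per 100 kb than all genes, with 3.78 against 3.98 below 50 kb and 0.459 against 1.17 at 200 kb and over.

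**Figure D4:**
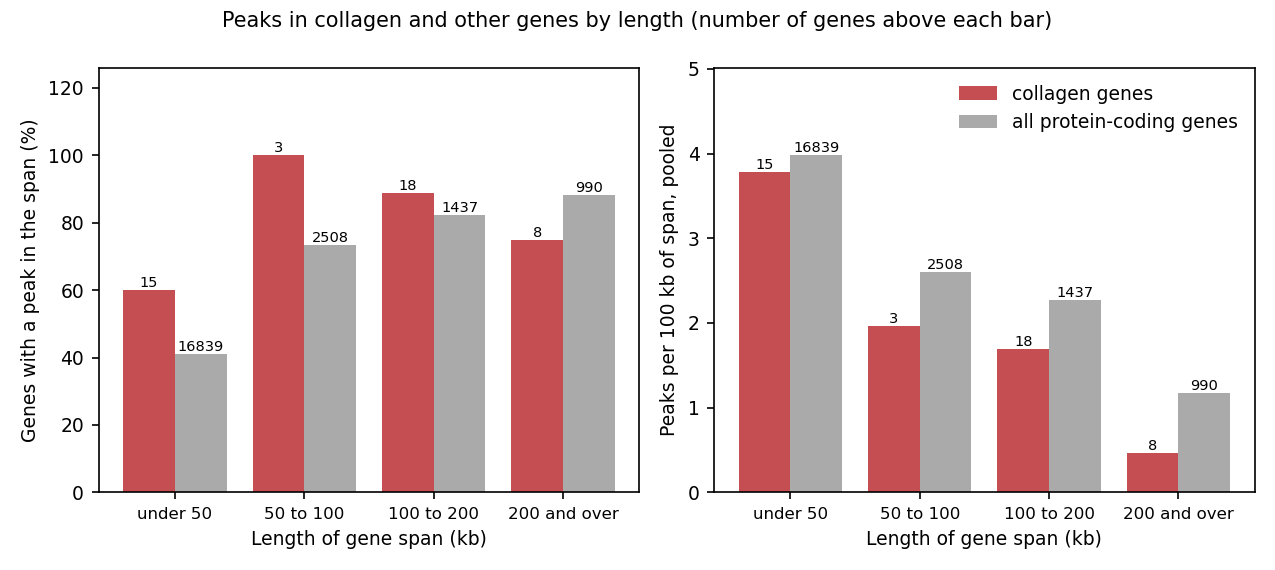
Bars compare collagen genes (red) with all protein-coding genes (grey) in 4 classes of gene length, by the share of genes with a peak in the span (%, left) and by pooled peaks per 100 kb (right), with the number of genes above each bar. The collagen share is above the grey bar in the 3 shorter classes and below it at 200 kb and over, and the collagen density is lower in each class.

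Basement membrane genes had 19 peaks summed over genes in 1162 kb, or 1.64 per 100 kb (95% Poisson interval 0.985 to 2.55), and fibrillar genes had 12 in 1046 kb, or 1.15 (0.593 to 2.0). The intervals overlap. Without Col18a1, a choice made after its 9 peaks were seen, the basement membrane value was 0.955, below that of the fibrillar genes. The order of the classes in peak density therefore rests on this gene.

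Beyond these classes, peaks were gathered in a few genes. Col6a5 and Col26a1 held 6 each, Col23a1 held 4, and Col13a1 and Col8a2 held 3 each, as did Col4a1, Col4a2 and Col5a3. Col6a5 encodes a type VI chain and lies in a row with Col6a6 and Col6a4 on chromosome 9, and its peaks scored between 612 and 811, while Col6a6 held 1 at 819 and Col6a4 held 2 at 730 and 734. Of the 6 peaks of Col26a1, 4 lay in intron 3, and their scores ran from 698 to 760. Col13a1 and Col23a1 encode transmembrane collagens, with top scores of 847 and 712, and Col8a2, a short chain collagen of the cornea, reached 810. Without a peak were Col1a2, Col3a1, Col24a1, Col6a1, Col6a2, Col8a1, Col9a3, Col10a1, Col22a1 and Col28a1. Col22a1 is 355 kb long and Col10a1, a marker of hypertrophic cartilage, 7.11 kb.

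The place of peaks within a gene was counted for collagens only, so no share over all genes stands beside the counts. Of 60 peaks away from a start, 56 were centred in introns, 2 in coding exons (Col16a1 and Col6a4) and 2 in 3′ UTRs (Col1a1 and Col11a2). Their median score was 708.5 and their median width 540.5 bp, close to the 688 and 519 bp of 16487 peaks in protein-coding genes away from any TSS. The collagen peaks away from a start therefore scored higher than those at a start, 708.5 against 610, while over all genes the order was the reverse, 688 against 735. By class, the medians away from a start were 660 in basement membrane and 738 in fibrillar genes.

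Base composition was measured in the 300 bases around each peak centre. At the 11 collagen TSS peaks the median was 55.0% G+C with a CpG ratio of 0.380, and at all 6598 TSS peaks 59.7% and 0.668. The Col23a1 peak stood apart at 79.0% and 1.00, and only it and Col5a3 (63.0% and 0.672) exceeded the median ratio of all TSS peaks. At the 60 collagen peaks elsewhere the median was 53.3% and 0.231, beside 52.3% and 0.218 for all peaks in genes away from a TSS.

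**Figure D5:**
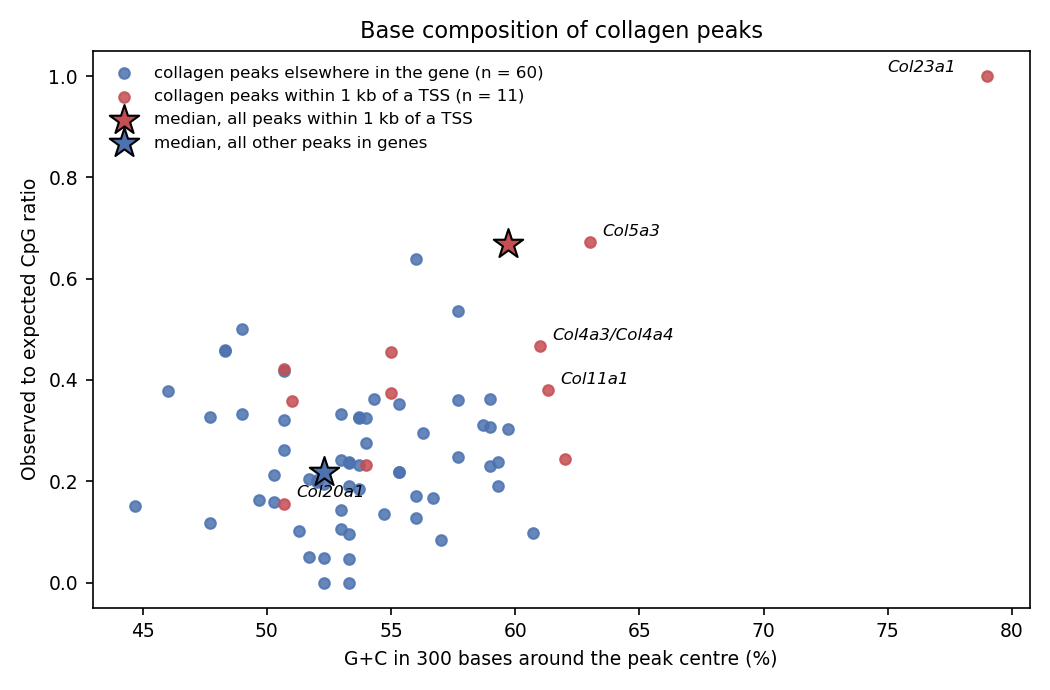
Each point is a collagen ATAC-seq peak, placed by G+C (%) and observed to expected CpG ratio in the 300 bases around its centre, red within 1 kb of a TSS (n = 11) and blue elsewhere in the gene (n = 60). Stars give the medians over all genes, and the red points apart from Col5a3 and Col23a1 lie below the red star's ratio of 0.668.

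Motif matches were counted in the same windows of the 71 collagen peaks and of 41000 peaks on assembled chromosomes. KLF matches were in 28.2% against 21.1%, ESRRB in 12.7% against 7.47%, CCAAT boxes in 39.4% against 33.2% and CTCF cores in 12.7% against 10.9%. SOX matches were in 26.8% against 26.1%, TEAD in 21.1% against 20.8% and GC boxes in 21.1% against 22.3%. AP-1 matches were in 8.45% against 11.3%, GATA in 4.23% against 9.28%, TATA boxes in 5.63% against 8.52% and the octamer in 1.41% against 2.85%. At the TSS peaks, ESRRB matches were in 3 of 11, at Col11a1, Col20a1 and Col7a1, and in 3.53% of all TSS peaks. KLF matches were in 5 of 11, at Col11a1, Col18a1, Col26a1, Col5a2 and Col7a1, and in 22.8% of all TSS peaks. Of the other motifs at the TSS peaks, GC boxes were in 5 of 11 (53.8% of all TSS peaks) and CCAAT boxes in 5 of 11 (37.2%). TATA box, SOX, AP-1, TEAD and CTCF core matches were each in 1 of 11. Their shares over all TSS peaks were 4.4%, 15.4%, 5.82%, 13.3% and 14.0%, in that order. The octamer and GATA were in 0 of 11, and in 1.65% and 4.76% of all TSS peaks. No test was made of these counts.

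Genes that make, bind and neighbour collagen were counted by the same rule, by which 29.9% of all protein-coding genes had a TSS peak. Of 33 genes for collagen biosynthesis, 13 (39.4%) had a TSS peak, with Ppib, a proline isomerase, at 919, P3h1, a prolyl 3-hydroxylase, at 901, Fkbp14, another isomerase, at 772 and Serpinh1, the collagen chaperone, at 760. Lox and the 4 Loxl genes, which encode the cross-linking enzymes and were singled out after their values were seen, had no peak at a TSS or in the gene. Of 17 partners of collagen in basement membranes, 9 (52.9%) had a TSS peak, with Sparc at 906, Agrn at 792 and the laminin gene Lama1 at 774. Of 9 collagen receptors, 3 (33.3%) had one, with Lair1 at 755, Ddr1 at 691 and Itga10 at 649. Taking the highest score per gene, the median over genes with a TSS peak was 726 for biosynthesis, 746 for the partners, 691 for the receptors, 630.5 for the 12 collagens and 751 for all protein-coding genes.

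The third comparison placed collagen genes in the chromatin loops that the study classed as responsive or less responsive to ZBTB21, a zinc finger protein that it depleted with a degron. By its methods, responsive loops hold ZBTB21 peaks and cohesin peaks that weakened on depletion, less responsive loops hold neither, and the ranking used ZBTB21 and cohesin signals at ATAC-seq peaks inside each loop. Neither ATAC-seq peak numbers nor ZBTB21 peaks are therefore independent of the classes. The 500 responsive loops overlapped 5 collagen genes (11.4%, beside 15.9% of all genes). The 500 less responsive loops overlapped 7 (15.9%, beside 6.24%). Over all genes, the share in less responsive loops was 5.64% below 50 kb, 4.98% at 50 to 100 kb and highest at 200 kb and over. The share in responsive loops did not grow with gene length, at 15.8% below 50 kb and 14.9% at 200 kb and over. Among genes of 100 to 200 kb, less responsive loops overlapped 5 of 18 collagens (27.8%) and 6.82% of all genes, and among genes of 200 kb and over, 1 of 8 (12.5%) and 18.9%. With only a TSS required inside such a loop, 6 collagen genes (13.6%) and 5.84% of all genes counted. In loop anchors only, the responsive class turned, with 3 collagen genes (6.82%) beside 3.49% of all genes. No gene was in both. One loop can hold several genes, and Col9a3 and Col20a1 shared a responsive loop as Col3a1 and Col5a2 shared a less responsive one.

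The responsive loops at collagen genes held 8 to 60 peaks, few of which were in collagen genes. The 1650 kb loop over Col2a1 held 60 peaks, of which 2 were in the gene. The 500 kb loop over Col9a3 and Col20a1 held 20, of which 1 was in Col20a1 and 0 in Col9a3. Col23a1 was in 3 responsive loops of 8 to 22 peaks, with 3 of its 4 peaks inside each, and Col26a1 was touched at its 3′ end by a loop of 39 peaks, with 0 of its 6 inside.

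The less responsive loops at collagen genes held 0 to 6 peaks, a number that is not independent of how the class was defined. The 2000 kb loop over Col11a1 held 6 peaks, among them the Col11a1 TSS peak at 900. The 925 kb loop over Col3a1 and Col5a2 held 3, among them the Col5a2 TSS peak. The loop over Col25a1 held 2, of which 1 was in the gene, and Col12a1 was in 4 loops of 3 or 4 peaks, with its single peak at 817 inside each. The loop that Col8a1 entered held 0, and the one that the end of Col4a4 entered held 2, with 0 in that gene.

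ZBTB21 ChIP-seq peaks of mESCs, 1827 in all, lay in 0 of 44 collagen genes, beside 7.37% of protein-coding genes. They overlapped 0 of the 71 collagen ATAC-seq peaks, beside 1.98% of the list. At a TSS this was 0 of 11, beside 8.31% of all TSS peaks. Elsewhere in the gene it was 0 of 60, beside 0.734% of peaks in protein-coding genes away from any TSS. The ZBTB21 peak nearest to a collagen TSS lay 7.59 kb from a start of Col9a3. For the next gene, Col23a1, the distance to a start was 26.2 kb.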

How the data were processed

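ATAC-seq peaks of untreated V6.5 cells were used as the authors deposited them, in mm10 coordinates with a score per peak and no strand. The processing notes of the submitters name cutadapt 2.6, Bowtie2 2.3.5.1 and MACS2 2.1.1 without a role. How the ATAC-seq peaks were called, and whether cut sites were shifted for Tn5, is not given in the sources used here. For ChIP-seq the study's methods give an IDR of 0.05, and the deposited score was read, from its values alone, as a scaled IDR score.

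A peak counted at a TSS when at least 1 bp of it lay within 1 kb of a start of any RefSeq transcript of the gene on GRCm38, predicted ones included, and in a gene when it overlapped the span. Loops were used from outer edge to outer edge, with 25 kb anchors. Poisson intervals (95%) cover counting error only and treat peaks as independent. The interval counts were tested on simulated data, where 0 of 4000 counts differed from a direct count. Named were the basement membrane and fibrillar genes, genes with a TSS peak or in a loop, the 9 genes with 3 or more peaks (the tenth place was tied), and up to 4 examples of each other list by score. Members and lists were chosen with earlier results of these data known. Promoters were printed in place of windows at peak centres, to keep transcribed sequence short. Python 3.11.15, numpy 2.4.6, pandas 2.3.3, scipy 1.17.1, pysam 0.24.0 and matplotlib 3.10.9 were used.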

Additional observations from a re-analysis of the deposited data

How the results depend on the processing

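Each of 9 results was recomputed under other settings, 41 in all, of which 30 moved it by at most 1.5 times. Starts within 0.5, 2.5 or 5 kb, peak midpoints, merging of peaks within 500 bp and curated transcripts moved no count by more. Limiting the list to peaks above the median score left 2 collagen genes with a TSS peak (0 basement membrane, 1 fibrillar), beside 19.4% of all genes, and 20 with a peak in the span, with densities of 0.643 per 100 kb for all collagens, 0.517 for basement membrane and 0.574 for fibrillar genes, so that the order of the classes in density and at the TSS turned. The basement membrane density without Col18a1 was 0.955, a setting chosen after seeing the data. In loop anchors only, 3 collagen genes were in responsive loops (6.82%, beside 3.49% of all genes) and 3 in less responsive ones (6.82%, beside 1.77%), and 3 lay wholly inside responsive loops (6.82%, beside 14.5%). Fewer peaks, genes or bases enter each of these settings by construction. No paired analysis was possible because the list pools both replicates and holds no value for either, and for the same reason no replicate could be left out. The depth of the libraries is unknown, and a peak missing from the list may have been below its threshold.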
